A study of Mus musculus with 8 samples.

Results

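Homologous recombination and the protection of stalled replication forks were followed through 9 genes, Brca1, Bard1, Palb2, Brca2, Rad51ap1, Exo1, Blm, Tonsl and Fancd2. They were found by symbol among the 56748 genes of the deposited table, and each of the 9 symbols was found. RNA sequencing had been performed on 32D cells, an immortalized murine myeloid progenitor line that depends on interleukin-3 (IL-3). The cells had been transduced with murine Jak2WT or Jak2V617F, the mutant kinase of myeloproliferative neoplasms. In each background the glucose transporter genes Slc2a1 (GLUT1) and Slc2a3 (GLUT3) were either intact (GLUT1/3 WT) or both knocked out with CRISPR-Cas9 (GLUT1/3 dKO). The 4 groups were Jak2WT GLUT1/3 WT, Jak2WT GLUT1/3 dKO, Jak2V617F GLUT1/3 WT and Jak2V617F GLUT1/3 dKO, with 2 libraries each, from clones numbered 1 and 3. All groups had been held for 24 h in RPMI-1640 with serum and IL-3 (2 ng/ml), in which glucose was set to 5 mM, glutamine to 1 mM, and pyruvate was left out. The clones had been grown from single cells of 1 transduced line per background, so that a difference between backgrounds cannot be told apart from a difference between the lines. P-values measure the spread between such clones. The paper lists the same GLUT1 deletion for every dKO clone of a background, so the dKO clones of a background may share an edited founder cell. A difference between dKO and GLUT1/3 WT clones then cannot be told apart from a difference between founder cells.

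Homologous recombination repairs a broken chromosome by copying the sister chromatid. Ends are resected by nucleases such as EXO1, BRCA1 with its partner BARD1 brings in PALB2 and BRCA2, RAD51AP1 helps the broken end to invade the intact strand, and the BLM helicase takes part in resection and in resolving the joined strands. Several of these proteins, with TONSL and the Fanconi anemia protein FANCD2, shield and restart forks that have stalled. Most of these genes are known to be transcribed with the cell cycle, highest from late G1 into S phase, under E2F factors.

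As a description, the stretch around an E2F-type element in the promoters of the 9 genes is printed. The RefSeq promoter table (GRCm38.p6, 250 bases before and 50 after each start) held 6 of the 9 genes, Brca1, Bard1, Palb2, Brca2, Rad51ap1 and Blm, and each of these promoters had 1 exact match in GRCm39. An element was searched as TTCCCGC or TTCGCGC and as TTGCCGC or TTGGCGC on both strands. Each line gives 30 bases of the gene's own strand, with the matched letters in capitals. Palb2, in which none of these letters was found, is shown by the 30 bases just before its RefSeq start. These bases lie within the span of Palb2 in the deposited table, whose start is further upstream.
Brca1, chr11:101442742-101442771, minus strand: gctagcgctagGCGCCAAgcggccggtttc
Bard1, chr1:71142321-71142350, minus strand: cgccgctcagtTTCCCGCtcaggaagtttg
Brca2, chr5:150445907-150445936, plus strand: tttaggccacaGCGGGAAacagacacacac
Rad51ap1, chr6:126916520-126916549, minus strand: tctggttttcgGCGGGAAttgaaaccgcca
Blm, chr7:80184870-80184899, minus strand: aatcatccttcTTGCCGCgcagagcgtgcg
Palb2, chr7:121732170-121732199, minus strand: ctgcgcgtgcgcagagcgaacagaggtttt
The letters were present in 5 of the 6 promoters. In Brca1 and Rad51ap1 they lie after the RefSeq start, from base 22 and base 13. Of all 32851 promoters listed by RefSeq, 9.57% held them, and among the 10329 promoters of genes tested here 17.5% did. The cell cycle homology element (TTTGAA or TTCGAA, either strand) was in the Bard1 promoter only, against 14.5% of the promoters of tested genes. CCAAT, on either strand, was in 4 of the 6, against 38.2%. A match describes the letters in this window and is not a measurement of binding. Whether E2F factors had a part in the changes of the 9 genes was not tested.

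Recovered reads on genes ranged from 16846011 to 48884329 per library, and the 9 genes held between 299 and 4794 reads each in any library. Slc2a1 was lower in every dKO library (9.17 to 17.3 FPKM) than in every GLUT1/3 WT library (44.7 to 64.0 FPKM), and Slc2a3 likewise (16.0 to 49.5 against 91.9 to 198 FPKM). FPKM are fragments scaled by gene length and library total, a level per length that can be compared between genes. Of the markers that define myeloid cells, Mpo, Elane and Ctsg did not exceed 0.203 FPKM in any library, and Cebpa and Ly6c2 were at 0 in all. The labelled myeloblast-like type was therefore not borne out by these genes. Of the 12 listed myeloid markers 5 were expressed enough to be tested, among them Csf2rb at 48.9 to 190 FPKM. Fewer cells of a type or cell cycle phase and less RNA per cell cannot be told apart in these bulk samples. All members except Brca1 overlap another listed gene on the genome. Vps28, which shares 85 bases with Tonsl on the same strand, reached 22.1 FPKM, Ndufab1-ps, opposite Blm, reached 3.67 FPKM, and the others stayed at or below 0.942 FPKM. The strand setting of the counting is not given in the sources used here.

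Loss of both transporters in the Jak2V617F background was accompanied by higher RNA of 8 of the 9 genes, all but Palb2 (limma on log2(FPKM + 1), Benjamini-Hochberg adjusted p under 0.05). Over all 11818 genes tested, 13.7% were higher by the same test. The summed level of the 9 genes was 43.9 to 45.9 FPKM in the Jak2V617F GLUT1/3 WT clones and 77.2 to 89.5 FPKM in the Jak2V617F dKO clones. Their median log2 fold change was 1.02, beside -0.02 over all genes tested. For these 8 genes both dKO clones lay above both GLUT1/3 WT clones, an arrangement that 29.9% of all tested genes had in this direction. In the Jak2WT background Blm alone passed the test, and it was lower, as 6.06% of all tested genes were (0 members higher also at an unadjusted p under 0.05).

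**Figure D1:**
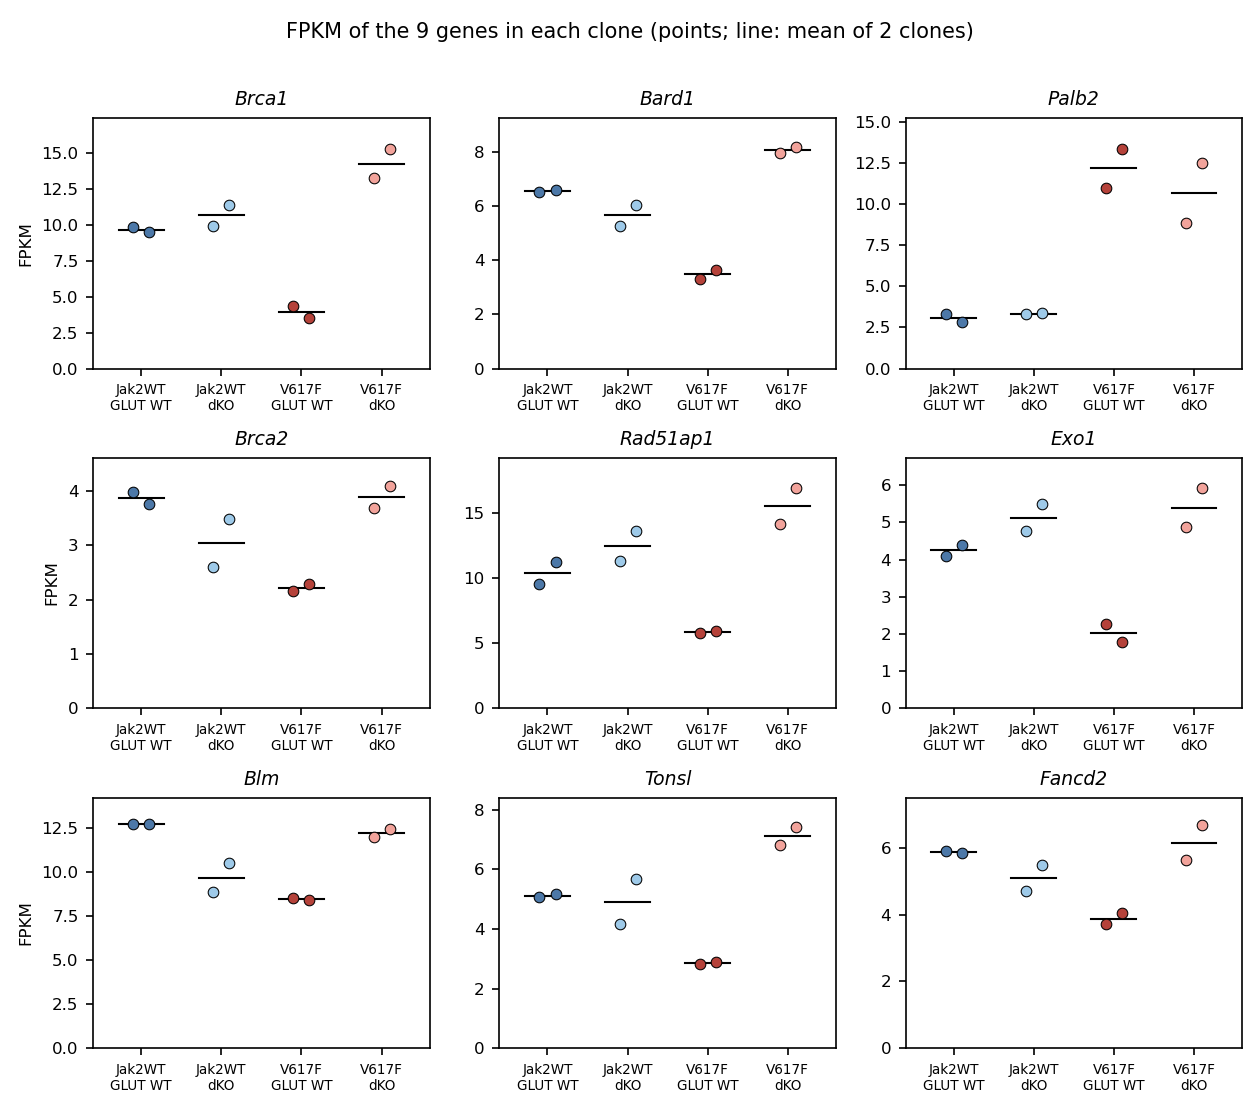
FPKM (y axes, from 0, a different scale in each panel) of each of the 9 genes in the 8 libraries, by group (x axes). Points are clones and lines the mean of 2 clones. In 8 panels the Jak2V617F GLUT1/3 WT clones are the lowest points, and in the Palb2 panel all 4 Jak2V617F clones, at 8.84 to 13.4 FPKM, lie above all 4 Jak2WT clones, at 2.81 to 3.36 FPKM.

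Brca1 (ENSMUSG00000017146, GRCm39 chromosome 11, 101379590 to 101442781, minus strand) encodes a ubiquitin ligase subunit that steers breaks towards recombination and protects stalled forks. With clone 1 named before clone 3, here and below, Brca1 was at 9.81 and 9.50 FPKM in Jak2WT GLUT1/3 WT and at 9.93 and 11.4 FPKM in Jak2WT dKO. It was at 4.32 and 3.55 FPKM in Jak2V617F GLUT1/3 WT and at 13.2 and 15.3 FPKM in Jak2V617F dKO. The 2 Jak2V617F GLUT1/3 WT clones were the lowest and the 2 Jak2V617F dKO clones the highest, and no group overlapped another. The group means of Jak2V617F, 3.93 ± 0.545 and 14.2 ± 1.44 FPKM (SD, n = 2), differed 3.62-fold between GLUT1/3 WT and dKO. This was a log2 fold change of 1.63 (SE 0.115, limma adjusted p = 0.000383), the largest among the 9 genes. In Jak2WT the same change was 0.13 (SE 0.115, limma adjusted p = 0.488).

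Bard1 (ENSMUSG00000026196, chromosome 1, 71066657 to 71142305, minus strand) encodes the partner without which BRCA1 is unstable. It measured 6.51 and 6.58 FPKM in Jak2WT GLUT1/3 WT, 5.27 and 6.04 FPKM in Jak2WT dKO, 3.31 and 3.66 FPKM in Jak2V617F GLUT1/3 WT and 7.98 and 8.18 FPKM in Jak2V617F dKO. The groups kept the order of Brca1 at both ends and did not overlap, but the Jak2WT dKO clones were below their controls. In Jak2V617F the log2 fold change of dKO was 1.02 (SE 0.0895, limma adjusted p = 0.000575), and in Jak2WT it was -0.18 (limma adjusted p = 0.208). The level of Brca1 over that of Bard1 was 1.51 and 1.44 in Jak2WT GLUT1/3 WT, 1.88 and 1.89 in Jak2WT dKO, 1.30 and 0.970 in Jak2V617F GLUT1/3 WT and 1.66 and 1.87 in Jak2V617F dKO. In both backgrounds the ratio was higher in both dKO clones than in both GLUT1/3 WT clones. For such a ratio an exact two-sided permutation test over 2 and 2 clones has a smallest possible p of 0.33.

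Palb2 (ENSMUSG00000044702, chromosome 7, 121706485 to 121732208, minus strand) encodes the protein that links BRCA1 to BRCA2, and its pattern was unlike that of the other 8 genes. It was at 3.31 and 2.81 FPKM in Jak2WT GLUT1/3 WT, 3.31 and 3.36 FPKM in Jak2WT dKO, 11.0 and 13.4 FPKM in Jak2V617F GLUT1/3 WT and 8.84 and 12.5 FPKM in Jak2V617F dKO. All 4 Jak2V617F clones were above all 4 Jak2WT clones, while within Jak2V617F the dKO and GLUT1/3 WT clones overlapped. Against Jak2WT it was 3.98-fold higher among the GLUT1/3 WT clones (log2 1.70, SE 0.162, limma adjusted p = 0.000773) and 3.20-fold higher among the dKO clones (log2 1.41, SE 0.162, limma adjusted p = 0.00225). The change with dKO was -0.19 in Jak2V617F (SE 0.162, limma adjusted p = 0.420) and 0.10 in Jak2WT (SE 0.162, limma adjusted p = 0.722). Across the 8 libraries the Pearson r of Palb2 with the mean of the other 8 genes was -0.34, whereas each of the others had an r of 0.84 to 0.99 with its own remainder. The 8 libraries fall into 4 groups, so these values describe the groups rather than independent points.

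The neighbours of Palb2 were looked at after its values had been seen. Dctn5, a dynactin subunit gene, starts 56 bases away on the opposite strand, and the Palb2 promoter window overlaps its first exon. Dctn5 was at 29.0 and 32.6 FPKM in Jak2WT GLUT1/3 WT, 28.7 and 27.8 FPKM in Jak2WT dKO, 31.9 and 31.0 FPKM in Jak2V617F GLUT1/3 WT and 27.1 and 24.8 FPKM in Jak2V617F dKO. Its log2 difference between the backgrounds was 0.03 among the GLUT1/3 WT clones (limma adjusted p = 0.828) and -0.12 among the dKO clones (limma adjusted p = 0.395). Of the 8 protein-coding genes within 100 kb on either side, Ern2 and Chp2 were at or near 0 and 6 were tested. None of these 6 was higher in Jak2V617F than in Jak2WT by the test in either set of clones, and Gga2, Ubfd1, Ndufab1 and Plk1 were lower among the GLUT1/3 WT clones, with a log2 difference of -0.68 for Gga2, -0.57 for Ubfd1, -0.45 for Ndufab1 and -0.997 for Plk1. Among the dKO clones Gga2 and Ubfd1 were lower, by -0.30 and -0.62. Over all tested genes 15.3% were higher and 14.9% lower in Jak2V617F among the GLUT1/3 WT clones. Among the dKO clones 842 of 11818 were higher and 1177 lower. With 6 genes, a count of 0 higher is near these shares.

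**Figure D2:**
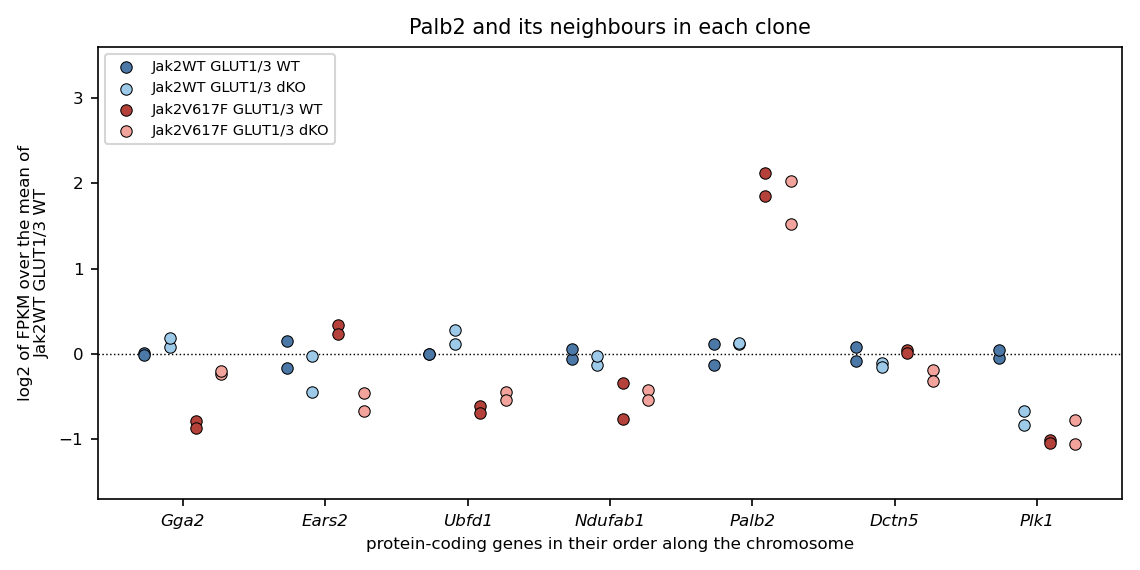
Level of Palb2 and of the 6 tested protein-coding genes within 100 kb of it (x axis, in chromosomal order) as log2 of FPKM over the mean of the Jak2WT GLUT1/3 WT clones (y axis). Each point is 1 clone. All 4 Jak2V617F clones of Palb2 lie far above 0, and those of the adjoining Dctn5 lie near 0.

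Brca2 (ENSMUSG00000041147, chromosome 5, 150446095 to 150493794, plus strand) encodes a large protein that acts after resection, before strand invasion. It was at 3.97 and 3.75 FPKM in Jak2WT GLUT1/3 WT, 2.60 and 3.48 FPKM in Jak2WT dKO, 2.15 and 2.28 FPKM in Jak2V617F GLUT1/3 WT and 3.67 and 4.09 FPKM in Jak2V617F dKO. The Jak2V617F GLUT1/3 WT clones were lowest, and the Jak2V617F dKO clones overlapped the Jak2WT GLUT1/3 WT clones. In Jak2V617F the dKO clones were 1.75-fold higher (log2 0.60, SE 0.124, limma adjusted p = 0.0116). Without Jak2V617F GLUT1/3 WT clone 1 the log2 value was 0.57 and no longer passed the test. The level of Brca2 over that of Palb2 was 1.20 and 1.33 in Jak2WT GLUT1/3 WT and 0.784 and 1.04 in Jak2WT dKO, against 0.195 and 0.171 in Jak2V617F GLUT1/3 WT and 0.415 and 0.326 in Jak2V617F dKO. Every Jak2V617F clone thus held less Brca2 than Palb2 RNA per length, and 3 of the 4 Jak2WT clones held more.

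Rad51ap1 (ENSMUSG00000030346, chromosome 6, 126900013 to 126916550, minus strand) encodes a DNA-binding protein that promotes strand invasion. It measured 9.53 and 11.2 FPKM in Jak2WT GLUT1/3 WT, 11.3 and 13.6 FPKM in Jak2WT dKO, 5.76 and 5.92 FPKM in Jak2V617F GLUT1/3 WT and 14.1 and 16.9 FPKM in Jak2V617F dKO. The order of the groups was that of Brca1, with no overlap. In Jak2V617F the dKO clones were 2.66-fold higher (log2 1.27, SE 0.126, limma adjusted p = 0.000846), and in Jak2WT the log2 difference was 0.24 (limma adjusted p = 0.241).

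Exo1 (ENSMUSG00000039748, chromosome 1, 175708147 to 175741055, plus strand) encodes a resection nuclease. Its values were 4.09 and 4.41 FPKM in Jak2WT GLUT1/3 WT, 4.77 and 5.49 FPKM in Jak2WT dKO, 2.27 and 1.80 FPKM in Jak2V617F GLUT1/3 WT and 4.87 and 5.92 FPKM in Jak2V617F dKO. The dKO clones of the 2 backgrounds overlapped, and the Jak2V617F GLUT1/3 WT clones stood below all others. The log2 fold change of dKO was 1.08 in Jak2V617F (SE 0.126, limma adjusted p = 0.00144) and 0.22 in Jak2WT (limma adjusted p = 0.273).

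Blm (ENSMUSG00000030528, chromosome 7, 80104481 to 80184867, minus strand) was at 12.7 and 12.7 FPKM in Jak2WT GLUT1/3 WT, 8.86 and 10.5 FPKM in Jak2WT dKO, 8.56 and 8.45 FPKM in Jak2V617F GLUT1/3 WT and 12.0 and 12.5 FPKM in Jak2V617F dKO. Among the 9 genes it alone had its highest group in Jak2WT GLUT1/3 WT, and no group overlapped another. With dKO its log2 change was 0.48 in Jak2V617F (SE 0.0914, limma adjusted p = 0.00878) and -0.36 in Jak2WT (SE 0.0914, limma adjusted p = 0.0411). Over 18 alternatives the adjusted p of the decrease in Jak2WT ranged from 0.0124 to 0.203, and it missed the threshold in 10, among them the omission of any of the Jak2WT libraries or of either Jak2V617F GLUT1/3 WT library.

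Tonsl (ENSMUSG00000059323, chromosome 15, 76510202 to 76524158, minus strand) encodes a scaffold that reads newly replicated histones and acts at stalled forks. It was at 5.06 and 5.18 FPKM in Jak2WT GLUT1/3 WT, 4.15 and 5.68 FPKM in Jak2WT dKO, 2.82 and 2.88 FPKM in Jak2V617F GLUT1/3 WT and 6.83 and 7.41 FPKM in Jak2V617F dKO. The 2 Jak2WT groups overlapped, with the Jak2V617F groups below and above them. The dKO clones of Jak2V617F were 2.50-fold higher (log2 1.08, SE 0.126, limma adjusted p = 0.00144), and in Jak2WT the log2 difference was -0.06 (limma adjusted p = 0.785).

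Fancd2 (ENSMUSG00000034023, chromosome 6, 113508643 to 113573978, plus strand) encodes the protein that is ubiquitinated at crosslinks and stalled forks. Its levels were 5.91 and 5.86 FPKM in Jak2WT GLUT1/3 WT, 4.70 and 5.48 FPKM in Jak2WT dKO, 3.71 and 4.05 FPKM in Jak2V617F GLUT1/3 WT and 5.64 and 6.67 FPKM in Jak2V617F dKO. The Jak2V617F dKO clones overlapped the Jak2WT GLUT1/3 WT clones, and the Jak2V617F GLUT1/3 WT clones were again lowest. In Jak2V617F the log2 fold change of dKO was 0.55 (SE 0.107, limma adjusted p = 0.00924), and it did not pass without Jak2V617F GLUT1/3 WT clone 1 (0.50) or in a fit of the 2 groups alone. In Jak2WT the value was -0.18 (limma adjusted p = 0.290).

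**Figure D3:**
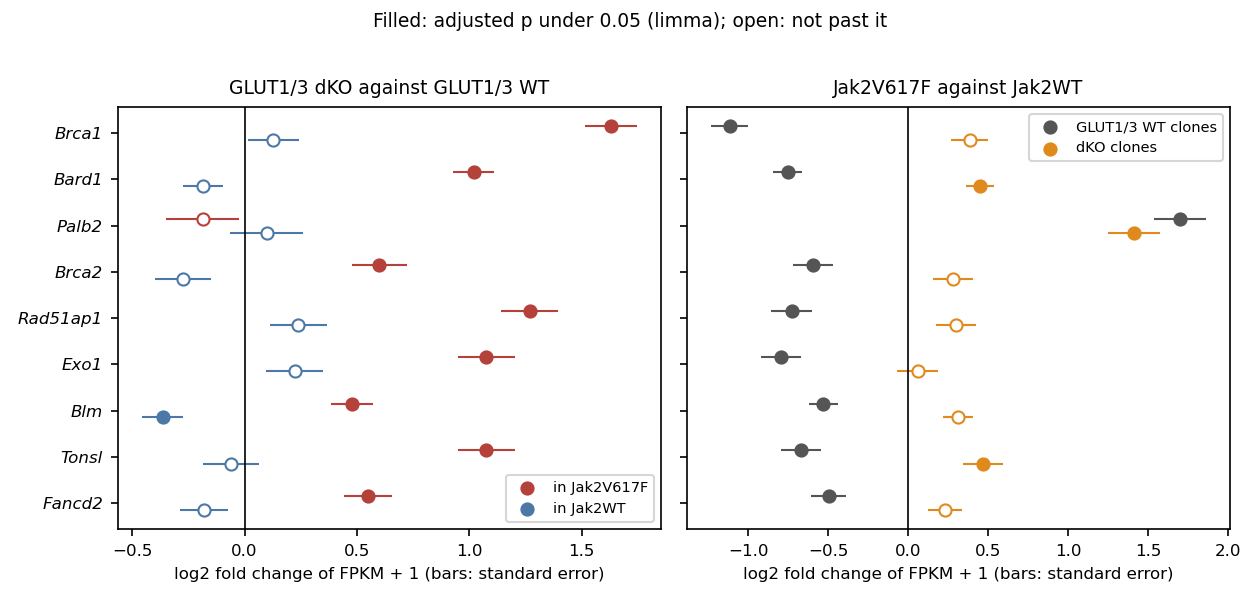
Log2 fold change of FPKM + 1 (x axes, bars 1 standard error) for each of the 9 genes, for dKO against GLUT1/3 WT in each background (left) and for Jak2V617F against Jak2WT in GLUT1/3 WT and in dKO clones (right). Filled points passed an adjusted p of 0.05 (limma): 8 of 9 for dKO in Jak2V617F, 1 of 9 for dKO in Jak2WT, 9 of 9 between GLUT1/3 WT clones and 3 of 9 between dKO clones.

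Whether dKO acted differently in the 2 backgrounds was tested with the interaction term of the same fit. The difference of the effects passed the test for 8 of the 9 genes, all positive, and 4.72% of all genes tested passed in that direction. It was 1.50 for Brca1 (SE 0.162, limma adjusted p = 0.00867) and 1.20 for Bard1 (SE 0.127, limma adjusted p = 0.00867) on the log2 scale. Among the genes of strand invasion and resection it was 1.03 for Rad51ap1 (limma adjusted p = 0.0184), 0.87 for Brca2 (limma adjusted p = 0.0278), 0.85 for Exo1 (limma adjusted p = 0.0306) and 0.84 for Blm (limma adjusted p = 0.0155). For the fork genes it was 1.14 for Tonsl (limma adjusted p = 0.0159) and 0.73 for Fancd2 (limma adjusted p = 0.0295). Palb2 had a difference of -0.28 (SE 0.229, limma adjusted p = 0.440). The count changed with single libraries. It was 0 without Jak2WT GLUT1/3 WT clone 3 (8 at an unadjusted p under 0.05), 2 without clone 1 of the same group, 2 without Jak2WT dKO clone 1, 7 without Jak2WT dKO clone 3, 6 without Jak2V617F dKO clone 3, and 3 and 5 without Jak2V617F GLUT1/3 WT clones 1 and 3, while over all 11818 genes 1256 were called with all libraries and 5 without Jak2WT GLUT1/3 WT clone 3. All 8 differences kept their sign under every alternative run.

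Before any loss of transporters the backgrounds already differed. Among the GLUT1/3 WT clones all 9 genes passed the test, 8 lower in Jak2V617F, where 14.9% of all tested genes were lower, and Palb2 higher, where 15.3% were. Brca1 was lower by -1.12 (SE 0.115, limma adjusted p = 0.00103), Exo1 by -0.79 (limma adjusted p = 0.00437), Bard1 by -0.75 (limma adjusted p = 0.00167), Rad51ap1 by -0.73 (limma adjusted p = 0.00589) and Tonsl by -0.67 (limma adjusted p = 0.00807) on the log2 scale. Smaller decreases of -0.59, -0.53 and -0.50 were measured for Brca2, Blm and Fancd2. The median over the 9 genes was -0.67, beside 0.01 over all genes. This comparison and that of dKO in Jak2V617F share the 2 Jak2V617F GLUT1/3 WT libraries, so the low values of those libraries enter both with opposite sign. The count of 8 fell to 5 without Jak2WT GLUT1/3 WT clone 3, when Brca2, Fancd2 and Tonsl no longer passed, and to 6 without Jak2WT GLUT1/3 WT clone 1 or Jak2V617F GLUT1/3 WT clone 1, when Brca2 and Fancd2 did not.

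Among the dKO clones 3 genes were higher in Jak2V617F, Palb2, Bard1 and Tonsl, with 7.12% of all tested genes higher. Bard1 was higher by 0.45 (SE 0.0895, limma adjusted p = 0.0158) and Tonsl by 0.47 (SE 0.126, limma adjusted p = 0.0444) on the log2 scale. Tonsl missed the threshold in 12 of 18 alternatives, which gave adjusted p of 0.0222 to 0.198, and Bard1 missed it in 3, without clone 1 of either dKO group and in a fit of the dKO groups alone. The remaining 6 genes had log2 differences of 0.06 (Exo1) to 0.39 (Brca1, limma adjusted p = 0.0597). Against Jak2WT GLUT1/3 WT, the Jak2V617F dKO clones were higher for 4 genes, with 14.9% of all tested genes higher. These were Palb2 (log2 1.51, limma adjusted p = 0.000787), Rad51ap1 (0.54, limma adjusted p = 0.0169), Brca1 (0.51, limma adjusted p = 0.0141) and Tonsl (0.41, limma adjusted p = 0.0452). The count of 4 was 1 without Jak2WT GLUT1/3 WT clone 1, 2 without clone 3 of that group and 1 without Jak2V617F dKO clone 3. Brca2, Fancd2 and Blm lay at 0.01, 0.05 and -0.05.

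The dKO clones of a background also differed from each other in a shared way. In Jak2V617F dKO all 9 genes were higher in clone 3 than in clone 1, by a median of 1.15-fold, while 51.6% of all tested genes were. In Jak2WT dKO all 9 were likewise higher in clone 3, by a median of 1.17-fold, against 46.8% of all tested genes. Between the GLUT1/3 WT clones, 5 of 9 genes were higher in clone 3 in Jak2WT, against 56.2% of all tested genes, and 6 of 9 in Jak2V617F, against 38.9%. The widest spread within a group was that of Palb2 in Jak2V617F dKO, where clone 3 was at 1.42 times clone 1.

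Beyond the 9 genes, 36 other genes of homologous recombination were listed and all could be tested. In Jak2V617F, 16 rose and 1 fell with dKO (median log2 0.29), where 13.7% of all tested genes were higher and 16.2% lower. In Jak2WT 4 rose and 2 fell (median -0.01), near the 7.62% higher and 6.06% lower of all tested genes. Among those that rose in Jak2V617F were Dna2, a resection nuclease and helicase (4.55 to 14.4 FPKM in group means, log2 1.47, limma adjusted p = 0.000528), and Rad54l, a motor protein of strand invasion (3.22 to 7.99 FPKM, log2 1.09). The 1 that fell was Babam2, a subunit of the BRCA1-A complex (log2 -0.47), which did not pass without either Jak2V617F GLUT1/3 WT clone or Jak2V617F dKO clone 3. Among the GLUT1/3 WT clones 18 of the 36 were lower and 3 higher in Jak2V617F (median -0.31), beside 14.9% lower and 15.3% higher over all tested genes, with Rmi2, a BLM partner, lowest at -1.15 and Zswim7, a recombination cofactor, highest at 0.82. The 2 that fell in Jak2WT were Rad51b, from 3.06 to 1.47 FPKM (log2 -0.72), and Rad51c, from 2.64 to 1.36 FPKM (log2 -0.62). With any of the 4 Jak2WT libraries left out, 0 or 1 of the 36 rose in Jak2WT and none fell. By voom on the recovered reads 23 rose and 1 fell in Jak2V617F. Between the GLUT1/3 WT clones the 18 lower genes became 7 without Jak2WT GLUT1/3 WT clone 3 and 8 without clone 1, and the 3 higher became 1 without either of these, without Jak2V617F GLUT1/3 WT clone 1 or by voom.

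Of 30 other fork protection and Fanconi anemia genes, 16 rose and 2 fell with dKO in Jak2V617F (median log2 0.36), beside 13.7% higher and 16.2% lower over all tested genes. In Jak2WT 1 rose and 2 fell (median -0.07), by this test no larger a share than the 13.7% of all tested genes that were called there in either direction. By voom 2 of the 30 rose and 8 fell in Jak2WT, beside 1018 higher and 1587 lower of all 11818 tested genes. With dKO in Jak2V617F, Clspn, the checkpoint mediator claspin, rose from 7.51 to 24.7 FPKM (log2 1.59). Rpa2, a subunit of the single-strand binding complex, rose from 11.9 to 36.9 FPKM (log2 1.56), and Timeless, of the fork protection complex, from 5.30 to 13.5 FPKM (log2 1.20). Fancc and Hltf fell, by -0.52 and -0.45, and neither passed without Jak2V617F GLUT1/3 WT clone 1, Jak2V617F GLUT1/3 WT clone 3 or Jak2V617F dKO clone 1. Among the GLUT1/3 WT clones 18 of the 30 were lower and 1 higher in Jak2V617F (median -0.39), beside 14.9% lower and 15.3% higher over all tested genes. The interaction passed for 14 of the 30 in the positive and 1 in the negative direction, beside 4.72% and 5.91% of all tested genes. The 14 became 0 without Jak2WT GLUT1/3 WT clone 3, 2 without clone 1 of that group, 2 without Jak2WT dKO clone 1, 8 without Jak2WT dKO clone 3 and 6 without Jak2V617F GLUT1/3 WT clone 1. The negative one was Radx, which encodes a single-strand binding protein of replication forks. Radx was at 4.02 and 4.19 FPKM in Jak2WT GLUT1/3 WT and at 13.3 and 7.98 FPKM in Jak2WT dKO, and had 0 reads in each of the 4 Jak2V617F libraries. Against a floor of 3 reads per library it was at least 110-fold lower in the Jak2V617F GLUT1/3 WT clones and at least 334-fold lower in the Jak2V617F dKO clones than in the matching Jak2WT clones. Its interaction value therefore measures its rise in Jak2WT alone, and voom on the recovered reads did not call it.

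End joining, which competes with recombination for breaks, was measured beside it. Of 18 tested genes of end joining and the 53BP1 axis, 5 rose and 1 fell with dKO in Jak2V617F (median log2 0.10). These 33.3% were near the 29.9% of all tested genes called in either direction (13.7% higher and 16.2% lower). Polq, the polymerase of theta-mediated end joining, rose by 1.03 and Rnf168, a histone ubiquitin ligase, by 0.92, and Xrcc4, a ligase cofactor, fell by 0.84 on the log2 scale. Without Jak2V617F GLUT1/3 WT clone 1 the 5 became 2. In Jak2WT none of the 18 passed (limma, beside 7.62% higher and 6.06% lower over all tested genes), with 2 higher and 1 lower at an unadjusted p under 0.05 and 1 lower by voom.

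**Figure D4:**
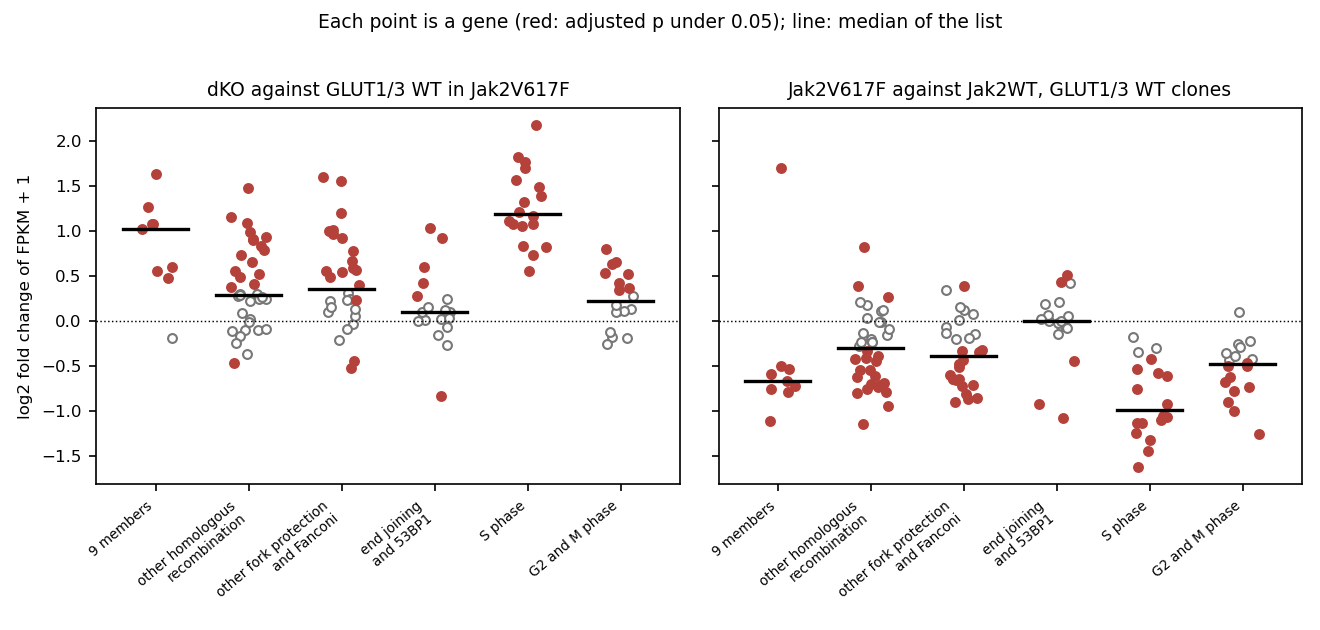
Log2 fold change of FPKM + 1 (y axis) of each tested gene except Radx, in 6 lists (x axis). The comparisons are dKO against GLUT1/3 WT in Jak2V617F (left) and Jak2V617F against Jak2WT among GLUT1/3 WT clones (right). Radx, with 0 reads in each Jak2V617F library, is not drawn but enters its list median. Filled red points passed an adjusted p of 0.05 (limma) and lines are list medians, which are 1.02 and -0.67 for the 9 genes, 1.19 and -0.99 for S phase genes and 0.10 and -0.01 for end joining genes.

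S phase genes were followed in the same comparisons. All 18 rose with dKO in Jak2V617F (median log2 1.19), beside 13.7% of all tested genes, and 15 were lower in Jak2V617F among the GLUT1/3 WT clones (median -0.99), beside 14.9%. In Jak2WT none of the 18 passed with dKO (limma, median 0.12, beside 7.62% higher and 6.06% lower over all tested genes), with 2 higher at an unadjusted p under 0.05 and 2 higher and 1 lower by voom. The summed level of these 18 genes was 709.7 to 764 FPKM in Jak2WT GLUT1/3 WT, 742 to 859 FPKM in Jak2WT dKO, 360 to 434 FPKM in Jak2V617F GLUT1/3 WT and 978 to 990 FPKM in Jak2V617F dKO. Cdc6, a replication licensing factor, rose most with dKO in Jak2V617F, from 3.99 to 21.1 FPKM (log2 2.17). Of 18 G2 and M phase genes, 8 rose in Jak2V617F with a median of 0.22 (13.7% of all tested genes were higher), and 6 fell in Jak2WT with a median of -0.36 (6.06% were lower). The 8 became 2 without Jak2V617F GLUT1/3 WT clone 1, 4 without clone 3 of that group or without Jak2V617F dKO clone 3, and 5 without either Jak2WT GLUT1/3 WT clone. The 6 became 0 without either Jak2WT GLUT1/3 WT clone or Jak2WT dKO clone 1, and 11 by voom or without either Jak2V617F dKO clone. The share of cells in each phase is not given by these data, and the part of the cell cycle in the changes of the 9 genes was not tested.

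Markers of maturing blood cells moved as well. The summed level of 12 erythroid markers was 282 to 301 FPKM in Jak2WT GLUT1/3 WT, 453 to 480 FPKM in Jak2WT dKO, 775 to 1141 FPKM in Jak2V617F GLUT1/3 WT and 2809 to 4958 FPKM in Jak2V617F dKO. Globins made up most of the last sum, with Hba-a1 at 993 to 2007 FPKM and Hbb-bs at 1437 to 2209 FPKM, and near-identical globin copies can share reads. Gata1, the erythroid transcription factor, fell with dKO in Jak2V617F, from 53.4 to 37.6 FPKM in group means, and did not pass without Jak2V617F GLUT1/3 WT clone 1 or Jak2V617F dKO clone 3. With dKO in Jak2V617F, 5 of the 8 tested erythroid markers rose and 1 fell, 4 of the 6 tested megakaryocyte markers rose, and 4 of the 5 tested myeloid markers fell, beside 13.7% higher and 16.2% lower over all tested genes. The 5 erythroid markers became 2 without Jak2V617F GLUT1/3 WT clone 3 and 3 without Jak2V617F dKO clone 1, and the 4 megakaryocyte markers became 2 without Jak2V617F GLUT1/3 WT clone 3 or any Jak2WT library. With dKO in Jak2WT, 3 of the 8 erythroid and 3 of the 6 megakaryocyte markers rose, and 0 of the 5 myeloid markers fell. Over all tested genes 7.62% were higher and 6.06% lower there. By voom 2 erythroid and 3 megakaryocyte markers rose in Jak2WT and 2 myeloid markers fell. The 12 myeloid markers summed to 180 to 182 FPKM in Jak2V617F GLUT1/3 WT and to 76.7 to 82.7 FPKM in Jak2V617F dKO. None of 8 lymphoid markers was tested, with sums of at most 0.708 FPKM in any library. Of mast cell markers Cpa3 alone was tested, at 50.8 to 100.5 FPKM in the Jak2WT libraries and at most 1.67 FPKM in the Jak2V617F libraries, while Kit was at 0 in all. The part of these markers in the changes of the 9 genes was not tested.

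Among all other genes tested, the 5 whose profile over the 8 libraries was most like the mean standardised profile of the 9 genes were Atad5, Rad54l, Mrm2, Birc5 and Wdr76, with Pearson r of 0.98 to 0.99. Atad5, which encodes the unloader of the replication clamp PCNA, was at 12.8 and 12.7 FPKM in Jak2WT GLUT1/3 WT, 10.1 and 13.3 FPKM in Jak2WT dKO, 6.70 and 6.53 FPKM in Jak2V617F GLUT1/3 WT and 14.3 and 17.0 FPKM in Jak2V617F dKO. As in 8 of the 9 genes, the Jak2V617F GLUT1/3 WT clones were lowest. The likeness is a description over 8 libraries in 4 groups.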

How the data were processed

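The 8 libraries were mapped to 4 groups from their labels, and 0 columns were left out. The authors made the deposited FPKM values from polyA-enriched libraries on mm39 (GRCm39) in the sequencing provider's pipeline, for which the submitters' processing notes name fastp (1.0.1) for cleaning, HISAT2 (2.2.1) for alignment and featureCounts (2.0.6) for counting. The annotation version, the strand setting and the total behind FPKM are not given in the sources used here. FPKM times gene length gave whole reads for 100% of values within 0.01 of a read, and these reads gave the depth. The spread between clones adds to this counting error.

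A gene was tested if 2 or more libraries reached an FPKM of 1, which held for 11818 genes. limma 3.58.1 in R 4.3.3 was fitted to log2(FPKM + 1) with 4 group means and a trend (4 residual degrees of freedom), with Benjamini-Hochberg adjustment across the 11818 genes. The pseudocount of 1 understates the change of low genes. The 6 comparisons share libraries. The scripts were checked on simulated data.

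The 9 genes and the gene lists were chosen with earlier results of these data known. Of each list, up to 3 called genes per direction and comparison with the largest change and no overlap of clones were open to naming. A detail of the cell line and 1 listed gene are not reported here. Alternatives were another pseudocount (0.1), dropping the filter or filtering on mean FPKM, rescaling to equal totals or by median ratios, a robust fit, voom on recovered reads, no trend, a block on clone number, fits of the compared groups alone, and the omission of each library.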

Additional observations from a re-analysis of the deposited data

Results flagged for a closer look

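For 8 of the 9 genes the effect of dKO in Jak2V617F differed from that in Jak2WT by the interaction term of the fit (limma, adjusted p under 0.05), which marks them for a closer look. Over all tested genes 4.72% passed in that direction. The 8 became 0 without Jak2WT GLUT1/3 WT clone 3, 2 without clone 1 of that group or Jak2WT dKO clone 1, and 3 and 5 without Jak2V617F GLUT1/3 WT clones 1 and 3. On the log2 scale the effect in Jak2V617F minus that in Jak2WT was 1.50 for Brca1, 1.20 for Bard1, 1.14 for Tonsl, 1.03 for Rad51ap1, 0.87 for Brca2, 0.85 for Exo1, 0.84 for Blm and 0.73 for Fancd2. For Brca1, Rad51ap1 and Exo1 both effects were above 0, and for Bard1, Tonsl, Brca2, Blm and Fancd2 the effect in Jak2WT was below 0, passing the test only for Blm. With 2 clones a group no sample could be marked as standing apart from its group.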

How the results depend on the processing

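Counts are of the 9 genes called, and medians are their log2 fold changes. With dKO in Jak2V617F, leaving out a library gave 6 to 8 genes higher, and the median was 1.19 with a pseudocount of 0.1 and 1.30 with voom. With dKO in Jak2WT the 1 lower gene became 0 without a filter, without the trend, with a replicate block and with only the compared groups, and was 0 to 1 without a library. Its median was -0.14 with equal totals and -0.25 to 0.11 without a library. In the interaction, 3 genes were higher without a filter and 0 to 8 without a library, with medians of 1.13 (pseudocount 0.1), 1.02 (equal totals), 1.28 (voom) and 0.77 to 1.03 without a library. Between the GLUT1/3 WT clones, 5 to 8 genes were lower without a library, with medians of -0.81, -0.79 and -0.91 under the same 3 settings. Between the dKO clones, 5 genes were higher by median ratio and by voom, 1 with only the compared groups and 1 to 3 without a library, whose medians were 0.20 to 0.44. Against Jak2WT GLUT1/3 WT, the Jak2V617F dKO clones had 2 genes higher without a filter and 1 to 4 without a library (medians 0.25 to 0.40).

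The sign turned for uncalled values only. Leaving out a library gave Palb2 -0.416 to 0.044 with dKO in Jak2V617F, Tonsl -0.25 to 0.13 with dKO in Jak2WT, and Exo1 -0.059 to 0.178 between dKO clones. In Jak2V617F dKO against Jak2WT GLUT1/3 WT, Fancd2 was -0.00058 with equal totals and -0.053 to 0.156 without a library, and Brca2 -0.043 with equal totals, -0.025 with voom and -0.056 to 0.067 without a library. The cause of these shifts was not tested.

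Over all genes, equal totals moved the median between GLUT1/3 WT clones from 0.01 to -0.12 and that of the interaction from -0.04 to 0.12, and the calls with dKO in Jak2V617F from 1614 higher and 1919 lower to 2192 and 1452. By the same rescaling the higher and lower calls were 706 and 1378 instead of 901 and 716 with dKO in Jak2WT, 1177 and 393 instead of 558 and 698 in the interaction, and 1223 and 2930 instead of 1812 and 1765 between GLUT1/3 WT clones. By voom on the recovered reads they were 2344 and 1617, 1018 and 1587, 1321 and 575, and 1399 and 2655 in these comparisons. Without a filter 714 genes were called with dKO in Jak2WT and 346 in the interaction, with only the compared groups 1617 with dKO in Jak2V617F and 1028 between dKO clones, and the calls with dKO in Jak2WT were 110 to 281 without a Jak2WT library and 1487 to 1974 without a Jak2V617F library.

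The clone numbers do not pair the groups: deviations of same-numbered clones correlated between -0.25 and 0.15. A block on this number changed no other call count of the 9 genes than that in Jak2WT above, and moved the calls over all genes from 3577 to 3355 between GLUT1/3 WT clones. Crossing the numbers of these 2 groups, a choice made after seeing the data, gave 3436, with all 9 genes called in each fit. Depth limited little here, since each of the 9 genes had at least 299 reads in every library.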
